A study of Mus musculus with 6 samples.

Results

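The genes described are 10 enzymes of purine breakdown and salvage, namely Nt5e, Ampd3, Ada, Pnp, Xdh, Aox1, Gda, Hprt, Aprt and Adk, in cultured mouse granulosa cells treated with GSK4112. They were listed by symbol and chosen by pathway with the FPKM differences between these GSK4112 and control libraries known, among them that of Xdh, so their differences are given as a description. Of the 10 listed genes 9 were found among the 27151 Ensembl gene IDs with a value, and the ID of Pnp was not. Granulosa cells are the steroid-making somatic cells around the oocyte in the ovarian follicle, and GSK4112 activates the nuclear receptor NR1D1, also called REV-ERBα, a repressor in the circadian clock whose ligand is heme. There were 3 GSK4112 libraries, from cells given the agonist for 24 h, and 3 control libraries, from cells kept for the same time without it. All the cells had been released by puncturing follicles of mouse ovary, cultured for 24 h with serum and starved of serum for 12 h, and the medium was changed every 12 h during treatment. The protocol describes culture, whereas the design text speaks of treatment in vivo. No source used here gives the strain, age or genotype of the mice, and no dose is printed, since the labels write it in a unit that is no concentration. Separate cultures or animals are not named for the replicates, and p-values therefore measure only how far these samples spread, which may be technical.

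Purine nucleotides are taken apart in steps. Phosphatases and deaminases turn AMP and adenosine into inosine, purine nucleoside phosphorylase frees the bases, and xanthine oxidoreductase, the product of Xdh, oxidizes hypoxanthine to xanthine and xanthine to uric acid. Salvage enzymes work in the other direction, since HPRT and APRT put free bases back on ribose phosphate and adenosine kinase rebuilds AMP from adenosine. In the follicle, adenosine, hypoxanthine and the guanine nucleotides made by granulosa cells are known for their part in holding the oocyte in meiotic arrest.

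Several of these genes have close relatives, which bears on how far their values can be assigned. Xdh and Aox1 (aldehyde oxidase) encode related molybdenum enzymes and lie on different chromosomes. Their coding sequences, taken from GENCODE M21 on GRCm38, had 59.5% identical bases over 3950 aligned bases, and the longest identical run was 17 bases. That run, in capitals, is shown within 60 bases that cross from exon 4 into exon 5 of the principal coding transcript of each gene. The stretch of Xdh spans chr17:73935963-73939779 on the minus strand and that of Aox1 spans chr1:58047220-58049398 on the plus strand, introns included.
Xdh: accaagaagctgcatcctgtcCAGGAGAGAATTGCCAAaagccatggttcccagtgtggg
Aox1: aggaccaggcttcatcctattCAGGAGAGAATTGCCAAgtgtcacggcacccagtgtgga
Over these 60 bases 45 were identical. Over all annotated transcripts of each gene, Ada, Hprt and Aprt shared 0 runs of 50 bases with the transcripts of any other gene. For Nt5e, Gda, Aox1 and Adk the shared part was at most 0.612%, and for Ampd3, AMP deaminase 3, it was 5.28%. For Xdh it was 9.60%, or 892 of 9296 runs, shared with 41 other genes. Ppp2r5a shared the most of them, 278 runs. The principal coding transcript of Xdh alone shared 0 of 4551.

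Pnp differed, because a near-identical neighbour, Pnp2, lies beside it on chromosome 14. The coding sequences of Pnp and Pnp2 were 98.15% identical over 867 aligned bases, with an unbroken identical run of 292 bases. A stretch of 60 bases near the coding end, in exon 6 of each transcript, is shown because the copies can be told apart there, with the 7 differing bases in capitals (Pnp at chr14:50951558-50951617, Pnp2 at chr14:50964410-50964469, both on the plus strand of GRCm38).
Pnp: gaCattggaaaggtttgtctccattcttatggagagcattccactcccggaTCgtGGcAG
Pnp2: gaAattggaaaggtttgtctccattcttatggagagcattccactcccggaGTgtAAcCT
Of the runs of 50 bases in all Pnp transcripts 22.05% occurred in transcripts of other genes. The gene that shared the most was not Pnp2 but Gm49342, described below, with 16.8% of the runs. Pnp under its M21 identifier, ENSMUSG00000115338, is not analysed here. The table did hold ENSMUSG00000021871, which M21 names Gm49342 and places at chr14:50944517-50963136, inside the Pnp locus, with 750 exon bases of which 718 belong to Pnp and 32 to Pnp2. The steps between its low values implied an exon length of 3085 bases, not 750, and 3085 is the joint exon length of 2 annotated coding transcripts of Pnp. The length behind its values thus matched Pnp transcripts and not the M21 exons of Gm49342, so Pnp may have been measured under this ID. Its values are given below under the M21 name Gm49342 and are not counted as those of Pnp.

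Promoters are printed, as examples, for the enzyme genes with the highest and the lowest FPKM. Shown are the 250 bases before the RefSeq start of Hprt (chrX:52987828-52988077, plus strand) and of Gda, guanine deaminase (chr19:21472662-21472911, minus strand), both from RefSeq on GRCm38.p6 and with each CpG in capitals.
Hprt: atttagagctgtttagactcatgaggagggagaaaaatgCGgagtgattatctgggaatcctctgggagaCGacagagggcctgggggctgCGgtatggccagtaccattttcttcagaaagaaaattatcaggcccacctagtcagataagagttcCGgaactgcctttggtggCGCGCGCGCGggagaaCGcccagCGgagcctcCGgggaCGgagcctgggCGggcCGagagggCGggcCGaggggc
Gda: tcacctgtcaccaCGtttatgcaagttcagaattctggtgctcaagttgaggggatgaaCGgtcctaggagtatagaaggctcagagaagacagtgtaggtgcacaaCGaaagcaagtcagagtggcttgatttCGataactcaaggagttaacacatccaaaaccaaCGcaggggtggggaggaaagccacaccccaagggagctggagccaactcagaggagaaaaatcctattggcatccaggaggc
The Hprt window held 17 CpG, more than 76.5% of the 32851 promoters in the RefSeq table, and 59.6% of its bases were G or C. The Gda window held 5 CpG, against a median of 6 over all promoters. A window of Ampd3, a gene of low FPKM, also held 17 CpG, and its other windows held 2 each. Whether CpG content goes with FPKM was not tested. The table had 12 promoters for 9 of the 10 genes, all but Xdh. The letters AGGTCA, the half-site bound by REV-ERB receptors, were searched on both strands of these windows and were in 0 of the 12, against 14.02% of all promoters. GCGTG, the core of the dioxin response element, was in windows of Aox1, Aprt, Nt5e and Adk (28.2% of all promoters), and the E-box CACGTG was in 1 window, of Ampd3 (6.02% of all). A match is a description of letters, and a window without a match says nothing about binding.

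Expression was given as FPKM, fragments scaled to exon length and to library size. Levels can be set between genes only as far as the exon length used matches the RNA present, which was not tested. The steps between low values implied a depth of 16559256 to 18158273 fragments, and each library had 12012 to 12290 genes at 1 FPKM or more. Differences were tested with limma on log2(FPKM + 1) over the 12181 genes with a mean of at least 1, and a gene was called at a Benjamini-Hochberg adjusted p under 0.05. In that fit 126 genes were called (1.03%), 50 higher (0.41%) and 76 lower (0.624%) with GSK4112. With median-of-ratios scaling the calls were 44 higher and 117 lower. Granulosa markers were abundant as a set in every library, with 11 of 12 at a mean of at least 1 FPKM. Their sum was 3534 to 5882 FPKM in GSK4112 libraries and 4149 to 6806 FPKM in control libraries, most of it Inha and Hsd3b1. Of these markers 0 were called higher and 1 lower, and they did not move as one. Fst averaged 24.0 FPKM with GSK4112 and 73.6 FPKM in controls, and Kitl 79.1 FPKM with GSK4112 and 34.5 FPKM in controls. Replicate 1 of both groups stood apart from the other libraries, and so did control replicate 2 for genes of glycolysis. Results that rest on them are given with that fact. Nr1d1, which encodes the receptor itself, had 12.0, 11.8 and 11.5 FPKM with GSK4112, against 9.24, 8.64 and 9.30 FPKM in controls, and was not called (limma, adjusted p = 0.0911).

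Of the 10 enzymes, 8 passed the filter on low values and 1 of them, Xdh, was called, beside the 1.03% of all tested genes called. The median log2 change over the 8 was 0.0173, against 0.0543 over all genes tested. For Xdh and Hprt the values of the groups did not overlap, beside 23.6% of all tested genes, and for the other 6 they did. Since these genes were picked with the comparison known, nothing is read from the counts.

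**Figure D1:**
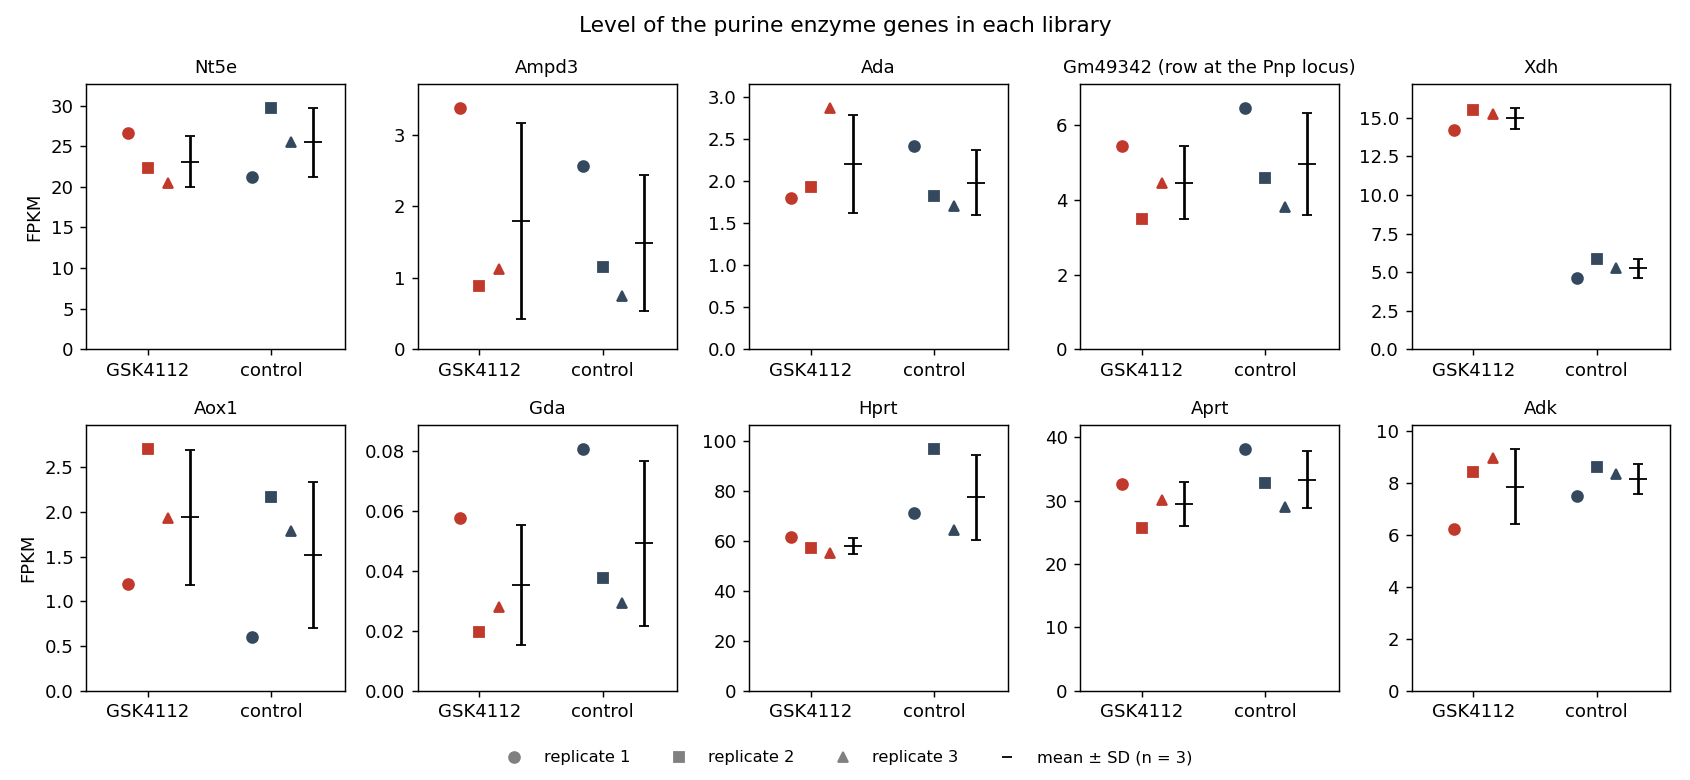
FPKM of each purine enzyme gene in the 6 libraries, GSK4112 in red at the left and control in dark blue at the right of each panel, with marker shapes for replicate numbers and bars for the mean ± SD (n = 3). The vertical scale differs between panels and starts at 0. The 3 GSK4112 values of Xdh, 14.2 to 15.5 FPKM, lie above the 3 control values, 4.62 to 5.87 FPKM. Gm49342 stands for the measured gene at the Pnp locus.

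The first enzymes are those that make and remove adenosine. Nt5e encodes CD73, the cell-surface enzyme that cuts AMP to adenosine, and lies at chr9:88327197-88372092 on the plus strand. It had 26.6, 22.3 and 20.4 FPKM in GSK4112 replicates 1, 2 and 3, against 21.2, 29.7 and 25.5 FPKM in control replicates 1, 2 and 3. The ranges overlapped, and the highest value was that of control replicate 2. The means were 23.1 ± 3.15 FPKM with GSK4112 and 25.5 ± 4.26 FPKM in controls (SD, n = 3 each), with a log2 change of -0.13 ± 0.149 (SE), which was not called (limma, adjusted p = 0.699). Without control replicate 2 the log2 change was -0.0165, without control replicate 1 it was -0.25, and without both replicate 1 libraries it was -0.35.

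Ada encodes adenosine deaminase, which turns adenosine into inosine, at chr2:163726584-163750239 on the minus strand. It was low in all libraries, at 1.80, 1.93 and 2.87 FPKM with GSK4112 and 2.42, 1.82 and 1.71 FPKM in controls, or 57 to 100 fragments a library. The highest value was in GSK4112 replicate 3 and the next in control replicate 1, so the groups overlapped. The log2 change was 0.0937 ± 0.173 (limma, adjusted p = 0.818). Nt5e stood 7.11 to 14.7 times above Ada in GSK4112 libraries and 8.76 to 16.3 times above it in control libraries. The gene of the enzyme that makes adenosine at the surface thus had the higher FPKM in all 6.

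Ampd3, at chr7:110768206-110812405 on the plus strand, encodes an isoform of AMP deaminase, which turns AMP into IMP. Its values were 3.37, 0.891 and 1.12 FPKM with GSK4112 and 2.56, 1.15 and 0.748 FPKM in controls. The replicate 1 library was the highest of both groups, and the groups overlapped. The log2 change was 0.13 ± 0.394 (limma, adjusted p = 0.897). In M21 its exons overlap 195 bases of Rnf141 and 196 bases of B430319F04Rik on the opposite strand, and since no strand setting is stated, reads there cannot be told apart.

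At the next step, the freeing of bases from inosine and guanosine, Gm49342 at the Pnp locus had 5.45, 3.48 and 4.46 FPKM with GSK4112 and 6.46, 4.58 and 3.82 FPKM in controls. The replicate 1 library was the highest in each group, and the ranges overlapped. The means were 4.46 ± 0.981 FPKM with GSK4112 and 4.95 ± 1.36 FPKM in controls (SD, n = 3 each; log2 change -0.12 ± 0.202, limma, adjusted p = 0.806). Pnp2 was listed at 0 to 0.0876 FPKM, or 0 to 2 fragments a library. No source used here says how reads of the 292 identical bases were shared between Pnp and Pnp2.

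The oxidizing enzymes come last in breakdown. Xdh, at chr17:73883895-73950196 on the minus strand (ENSMUSG00000024066), had 14.2, 15.5 and 15.2 FPKM in GSK4112 replicates 1, 2 and 3. In control replicates 1, 2 and 3 it had 4.62, 5.87 and 5.24 FPKM. All 3 GSK4112 libraries lay above all 3 control libraries, and the spread within each group was small beside the gap. The mean was 14.96 ± 0.682 FPKM with GSK4112 and 5.25 ± 0.625 FPKM in controls (SD, n = 3 each), a ratio of 2.85. Between libraries with the same replicate number the ratio was 3.07, 2.63 and 2.91. The steps of its FPKM implied at least 1100 to 1214 fragments in GSK4112 libraries and at least 385 to 465 in control libraries.

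The log2 change of Xdh was 1.36 ± 0.0995, and Xdh rose with GSK4112 in the fit over all genes (limma, adjusted p = 0.00883). By size it was the 11th of the 50 genes called higher, and the 76th of the 12181 tested genes in either direction. An exact permutation test of the 6 values gave the smallest p that 3 against 3 allow, 0.1, 2-sided. The log2 change stayed between 1.28 and 1.51 over 19 alternative settings and was called in 16 of them. It was not called without GSK4112 replicate 2 (limma, adjusted p = 0.0813), without GSK4112 replicate 3 (0.107) or without control replicate 3 (0.0523), where limma called 0 of 12181 genes. With bulk RNA, a larger share of cells that express a gene and more of its RNA per cell cannot be told apart.

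Xdh is also known from endothelial and epithelial cells, so markers of those cells were read beside it. None of the 9 measured endothelial markers reached a mean of 1 FPKM, and their sum was 0.748 to 1.32 FPKM in GSK4112 libraries and 0.972 to 1.37 FPKM in control libraries. Pecam1, which defines endothelium, had 0.204 to 0.212 FPKM with GSK4112 and 0.203 to 0.223 FPKM in controls. Of 9 surface epithelium markers 6 had a mean of at least 1, and their sum was 45.2, 19.9 and 17.6 FPKM with GSK4112, against 120, 56.2 and 45.4 FPKM in controls. Every GSK4112 sum lay under every control sum, and most of each sum was Krt8 (12.5 ± 8.21 FPKM with GSK4112 and 37.3 ± 25.4 FPKM in controls) and Krt18 (9.94 ± 4.25 FPKM with GSK4112 and 30.7 ± 12.2 FPKM in controls; SD, n = 3 each). The markers did not move as one, since Upk1b had 2.47, 1.604 and 0.943 FPKM with GSK4112 and 1.90, 0.950 and 0.374 FPKM in controls, and Msln averaged 1.40 ± 0.767 FPKM with GSK4112 and 1.09 ± 0.542 FPKM in controls. Of 12 macrophage and leukocyte markers 2 had a mean of at least 1, with Ptprc at 0.0440 to 0.0678 FPKM with GSK4112 and 0.0164 to 0.0331 FPKM in controls, and their sum was 17.3 to 38.7 FPKM with GSK4112 and 7.79 to 42.7 FPKM in controls. Of these 2 markers, Lyz2 had 30.1, 11.0 and 12.4 FPKM with GSK4112 and 34.2, 9.86 and 4.29 FPKM in controls, with overlapping groups. Cd68 had 5.69, 4.56 and 5.54 FPKM with GSK4112 and 4.47, 2.67 and 2.20 FPKM in controls (limma, adjusted p = 0.201). Like Xdh, it had all 3 GSK4112 values above all 3 control values, as did 15.7% of tested genes. The part of epithelial or myeloid cells in the level of Xdh was not tested.

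Aox1, the relative of Xdh shown above, lies at chr1:58029931-58106413 on the plus strand, and aldehyde oxidase oxidizes aldehydes and aromatic heterocycles. It had 1.19, 2.70 and 1.93 FPKM with GSK4112 and 0.602, 2.17 and 1.78 FPKM in controls. The replicate 1 library was the lowest in both groups, each GSK4112 value was above the control value of the same number, and the groups overlapped. The log2 change was 0.25 ± 0.309 (limma, adjusted p = 0.724; 0.297 with the replicate number as a block). Xdh stood above Aox1 in all 6 libraries, by 5.72 to 11.9 times with GSK4112 and by 2.71 to 7.68 times in controls.

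Gda removes guanine by turning it into xanthine, the substrate of xanthine oxidoreductase, and lies at chr19:21391307-21473445 on the minus strand. It was at 0.0579, 0.0197 and 0.0281 FPKM with GSK4112 and 0.0808, 0.0378 and 0.0294 FPKM in controls. These values are 6, 2 and 3 fragments with GSK4112 and 9, 4 and 3 fragments in controls. Gda was under the filter on low values and was not tested, and at this depth no difference was detectable.

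**Figure D2:**
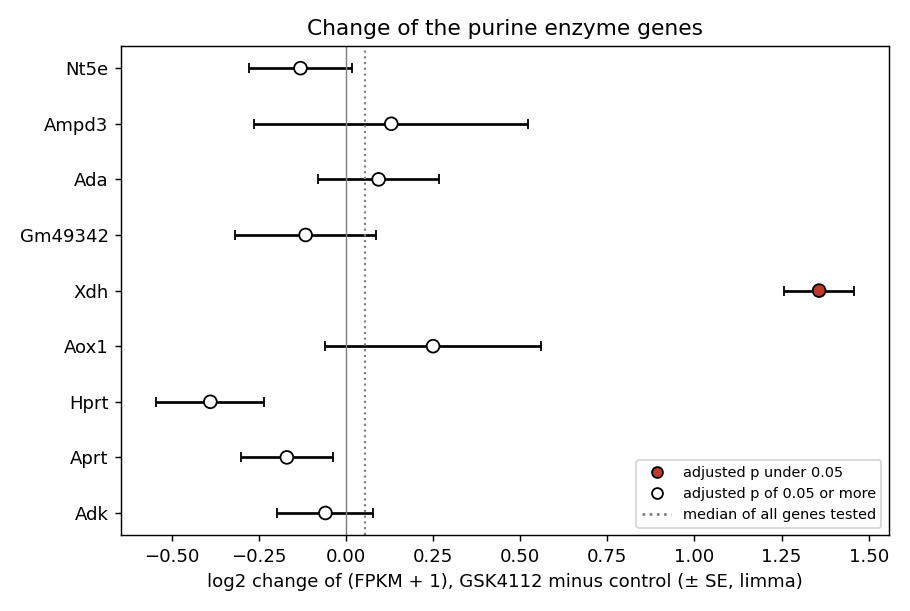
Log2 change of (FPKM + 1), GSK4112 minus control, for the 8 tested purine enzyme genes and Gm49342 at the Pnp locus, in the order of breakdown and then salvage, with bars for the SE of limma. Xdh, filled, is at 1.36 with an adjusted p under 0.05, and the open points lie between -0.39 (Hprt) and 0.25 (Aox1), on both sides of the dotted median of all genes at 0.0543.

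Salvage is led by Hprt, which rebuilds IMP and GMP from hypoxanthine and guanine and lies at chrX:52988137-53021659 on the plus strand. It had 61.6, 57.3 and 55.3 FPKM with GSK4112, against 71.3, 96.8 and 64.3 FPKM in controls. All 3 GSK4112 values were under all 3 control values, as for 7.9% of tested genes, and control replicate 2 stood above the rest. The means were 58.1 ± 3.23 FPKM with GSK4112 and 77.5 ± 17.1 FPKM in controls (SD, n = 3 each), a log2 change of -0.39 ± 0.155, which was not called (limma, adjusted p = 0.277; 0.129 with the replicate number as a block). Without control replicate 2 the log2 change was -0.22 (adjusted p = 0.398), and over all 19 alternative settings it ran from -0.51 to -0.22 and was called in none.

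Aprt rebuilds AMP from adenine and lies at chr8:122574635-122576909 on the minus strand. Its values were 32.6, 25.7 and 30.1 FPKM with GSK4112 and 38.1, 32.8 and 29.0 FPKM in controls, with the replicate 1 library highest in each group and overlapping ranges. The log2 change was -0.17 ± 0.131 (limma, adjusted p = 0.555). Adk encodes adenosine kinase, which rebuilds AMP from adenosine and competes with adenosine deaminase for it, at chr14:21052574-21448569 on the plus strand. It had 6.21, 8.41 and 8.94 FPKM with GSK4112 and 7.51, 8.60 and 8.34 FPKM in controls, with the replicate 1 library lowest in each group. Its log2 change was -0.0590 ± 0.138 (limma, adjusted p = 0.860). In FPKM, Adk stood 3.11 to 4.36 times above Ada with GSK4112 and 3.10 to 4.87 times above it in controls. The amounts of the enzymes were not measured.

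The high Hprt of control replicate 2 had company. Genes chosen after their values were seen were Ak4 (adenylate kinase 4), Ampd2 (another AMP deaminase) and Ldha (lactate dehydrogenase A). Ak4 had 1.45, 1.64 and 1.41 FPKM with GSK4112 and 1.64, 57.0 and 5.78 FPKM in controls. Ampd2 had 13.7, 16.9 and 17.1 FPKM with GSK4112 and 17.8, 30.3 and 17.4 FPKM in controls. Ldha had 100, 73.4 and 79.4 FPKM with GSK4112 and 151, 750 and 138 FPKM in controls. In each of these genes, and in Hprt and Nt5e, control replicate 2 was the highest of the 6 libraries. None was called (limma, adjusted p = 0.377 for Ak4, 0.407 for Ampd2 and 0.275 for Ldha). Whether what set that library apart also raised its Hprt was not tested. Xdh was highest among controls in the same library, at 5.87 FPKM, and still under every GSK4112 library.

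**Figure D3:**
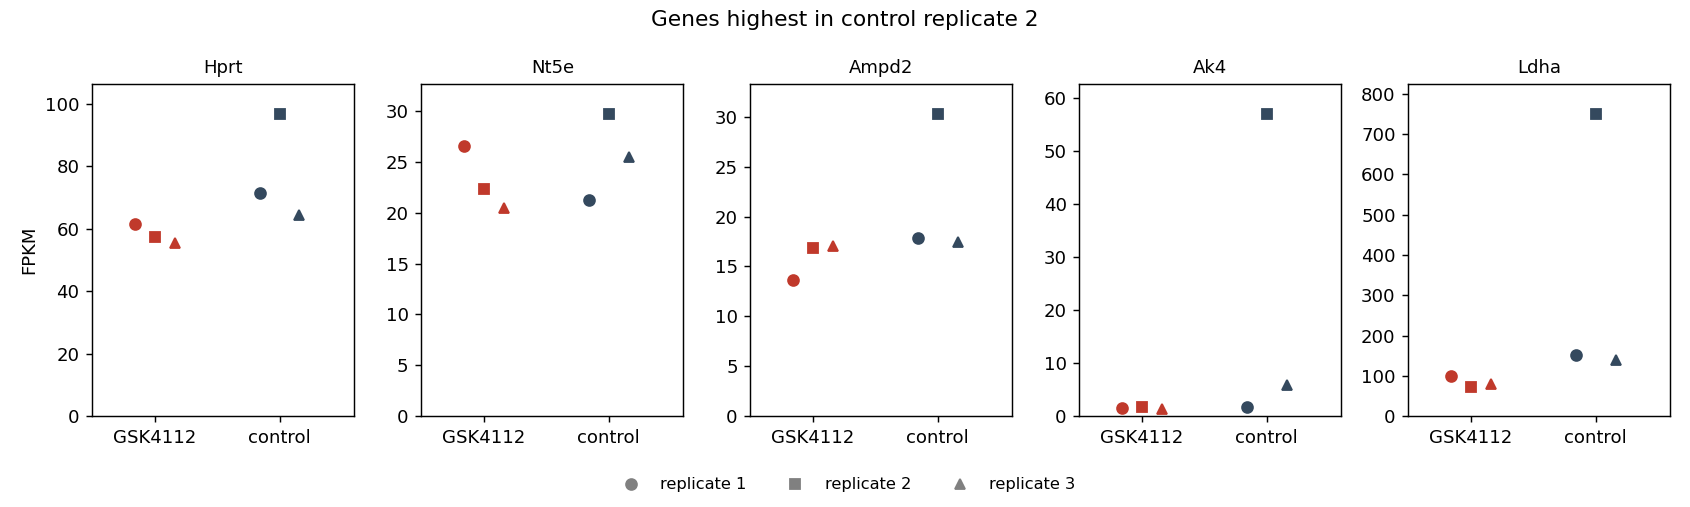
FPKM of Hprt, Nt5e, Ampd2, Ak4 and Ldha in the 6 libraries, GSK4112 in red at the left and control in dark blue at the right, with marker shapes for replicate numbers and axes that start at 0 and differ between panels. Control replicate 2, the square at the right, is the highest library in all 5 panels, at 96.8 FPKM for Hprt and 750 FPKM for Ldha.

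In some of these genes the replicate 1 libraries of both groups stood apart from the others. Ampd3 was at 2.56 to 3.37 FPKM in the replicate 1 libraries of both groups, against 0.748 to 1.15 FPKM in the other 4. Gda was likewise above the others in both replicate 1 libraries, but only at 6 and 9 fragments against 2 to 4, too few to compare. Aox1 was at 0.602 to 1.19 FPKM in the replicate 1 libraries, against 1.78 to 2.70 FPKM in the others, and Adk was at 6.21 to 7.51 FPKM, against 8.34 to 8.94 FPKM. Over all tested genes 18.1% had both replicate 1 libraries above the other 4 and 12.4% had both below. Xdh, Hprt, Aprt, Nt5e and Ada did not separate in this way. The summed level of 20 mitosis genes was 222, 45.5 and 40.4 FPKM with GSK4112 and 298, 73.5 and 80.8 FPKM in controls. Theca and stroma markers, of which 5 of 12 had a mean of at least 1, summed to 155, 83.6 and 96.9 FPKM with GSK4112. In controls they summed to 280, 60.8 and 63.1 FPKM. Most of each sum was Acta2, at 125, 63.7 and 76.9 FPKM with GSK4112 and 234, 44.5 and 46.9 FPKM in controls. Col1a1, Col1a2 and Myh11 were also highest in replicate 1 of both groups, whereas Nr2f2 was highest in replicate 3 of both. Cyp17a1, which defines theca cells, was at or under 0.0555 FPKM in all. Both sums were highest in replicate 1, and their part in the levels of Ampd3, Gda, Aox1 and Adk was not tested.

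**Figure D4:**
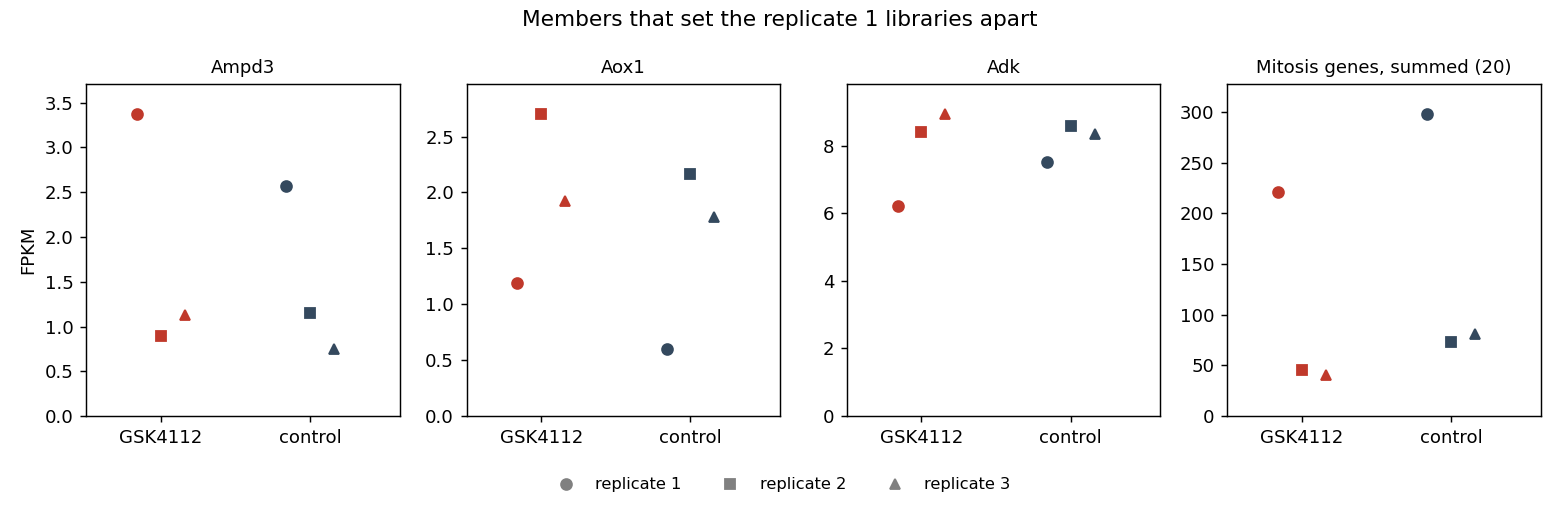
FPKM of Ampd3, Aox1 and Adk and the summed FPKM of 20 mitosis genes in the 6 libraries, GSK4112 in red at the left and control in dark blue at the right, with marker shapes for replicate numbers and axes that start at 0 and differ between panels. The circles, replicate 1, are above the other libraries for Ampd3 (2.56 to 3.37 FPKM) and mitosis and below them for Aox1 (0.602 to 1.19 FPKM) and Adk.

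The order of levels within a group placed Hprt first and Gda last in both. In GSK4112 cells the means ran from Hprt at 58.1 FPKM to Aprt at 29.5, Nt5e at 23.1, Xdh at 14.96, Adk at 7.85, Ada at 2.20, Aox1 at 1.94, Ampd3 at 1.80 and Gda at 0.0352 FPKM. Control cells had Hprt at 77.5 FPKM, Aprt at 33.3, Nt5e at 25.5, Adk at 8.15, Xdh at 5.25, Ada at 1.99, Aox1 at 1.52, Ampd3 at 1.49 and Gda at 0.0493 FPKM. The orders differed by the exchange of Xdh and Adk. The ranges of Aprt and Nt5e overlapped in both groups, as did those of Ada, Aox1 and Ampd3 with their neighbours in that order, and the other neighbours lay apart. Xdh over Adk was 2.28, 1.84 and 1.70 with GSK4112 and 0.616, 0.683 and 0.628 in controls, so Xdh was above Adk in the 3 GSK4112 libraries and below it in the 3 controls. Hprt, which draws on hypoxanthine as Xdh does, stood 4.34, 3.70 and 3.63 times above Xdh with GSK4112 and 15.4, 16.5 and 12.3 times above it in controls.

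Around these enzymes, 63 other genes of purine and pyrimidine metabolism were tested, and limma called 0 of them. At an unadjusted p under 0.05 there were 8 of the 63, beside 17% of all tested genes, and limma-voom on recovered fragments also called 0. The median log2 change of the 63 was -0.0269. With the replicate number as a block 4 of the 63 were called, 1 higher and 3 lower, beside 6.89% of all tested genes, and each is named with its list. The lists were drawn up by function with earlier results of these data known.

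Among the other genes of purine breakdown and salvage 17 of 27 measured were tested, and their median log2 change was -0.0420. Nt5c, a cytosolic nucleotidase, averaged 53.5 ± 6.56 FPKM with GSK4112 and 59.9 ± 8.88 FPKM in controls (SD, n = 3 each). Samhd1, which breaks down deoxynucleotides, had 8.92, 9.11 and 9.72 FPKM with GSK4112 and 14.8, 12.7 and 17.5 FPKM in controls, without overlap (log2 change -0.63, limma, adjusted p = 0.0714; 0.0201 with the block).

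Xanthine oxidoreductase and aldehyde oxidase need a molybdenum cofactor. Of 8 genes for that cofactor or the enzymes that carry it 7 were tested, and their median log2 change was 0.0790, beside the 0.0543 of all genes. Mocos, chosen after its values were seen, the sulfurase that activates the cofactor in both enzymes, had 4.37, 2.85 and 2.63 FPKM with GSK4112 and 3.04, 2.89 and 1.90 FPKM in controls, with overlapping groups (limma, adjusted p = 0.587). Mocs1, of the first step of cofactor synthesis, averaged 7.68 ± 0.445 FPKM with GSK4112 and 6.88 ± 0.263 FPKM in controls (SD, n = 3 each; adjusted p = 0.448), and Marc2, another molybdenum enzyme, averaged 9.14 ± 1.13 FPKM with GSK4112 and 8.95 ± 1.39 FPKM in controls.

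All 15 genes in the list of de novo purine synthesis were tested. The list also holds the GMP reductase genes Gmpr and Gmpr2, which are not of the de novo route itself. The median log2 change of the list was -0.0656, with 12 genes lower and 3 higher with GSK4112. Paics, a bifunctional enzyme of the middle of the route, averaged 61.9 ± 2.39 FPKM with GSK4112 and 64.9 ± 5.25 FPKM in controls (SD, n = 3 each). Impdh1, an IMP dehydrogenase on the branch to GMP, averaged 26.4 ± 2.43 FPKM with GSK4112 and 25.4 ± 0.684 FPKM in controls. Neither was called (limma, adjusted p = 0.745 for Paics and 0.822 for Impdh1), nor was any other gene of the list. These 2 were named for their abundance. In Ppat, Adsl, Adss and Gmps all GSK4112 values were under all control values, as for 7.9% of tested genes, and 0 genes of the list showed the reverse.

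Outside the cell, 4 of 12 measured genes of nucleotide breakdown beside Nt5e were tested (median log2 change -0.0398). Entpd1, which encodes CD39 and supplies AMP to CD73, had 3.84, 3.14 and 2.88 FPKM with GSK4112 and 4.29, 5.73 and 4.60 FPKM in controls. The groups did not overlap, and it was not called (limma, adjusted p = 0.175). Entpd5 averaged 9.25 ± 0.216 FPKM with GSK4112 and 7.69 ± 1.73 FPKM in controls (SD, n = 3 each), with an adjusted p of 0.439. Of 16 measured purinergic receptors 2 were tested, the ATP-gated channel gene P2rx4 at 7.53 ± 0.403 FPKM with GSK4112 and 5.94 ± 0.546 FPKM in controls, and the adenosine receptor gene Adora1 at 5.94 ± 0.496 FPKM with GSK4112 and 6.05 ± 2.41 FPKM in controls (adjusted p = 0.190 for P2rx4 and 0.960 for Adora1).

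Of 14 measured transporters of purines 7 were tested, with a median log2 change of -0.21. Abcc4, an exporter of cyclic nucleotides and urate, had 8.25, 10.8 and 9.75 FPKM with GSK4112 and 4.44, 6.20 and 7.33 FPKM in controls, without overlap (log2 change 0.61, limma, adjusted p = 0.156; 0.0285 with the block). Slc29a3, a nucleoside transporter of intracellular membranes, averaged 7.88 ± 0.247 FPKM with GSK4112 and 8.86 ± 0.887 FPKM in controls (SD, n = 3 each; adjusted p = 0.467). In the pyrimidine list, kept beside for comparison, 11 of 16 genes were tested (median log2 change -0.0348). The uridine-cytidine kinase genes averaged 21.9 ± 3.72 FPKM with GSK4112 and 34.3 ± 5.81 FPKM in controls for Uck1, and 20.5 ± 0.659 FPKM with GSK4112 and 33.3 ± 6.51 FPKM in controls for Uck2. Their groups did not overlap (limma, adjusted p = 0.132 for Uck1 and 0.1003 for Uck2; 0.0209 and 0.0266 with the block).

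**Figure D5:**
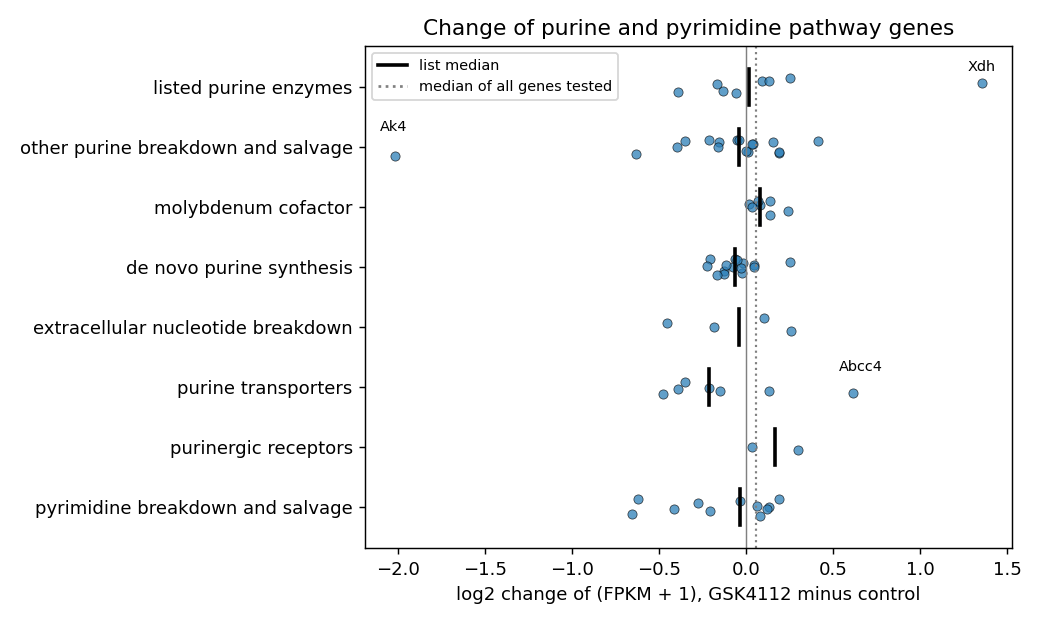
Log2 change of (FPKM + 1), GSK4112 minus control, of each tested gene in the purine enzyme list, in 6 other purine lists or lists of connected proteins and in the pyrimidine list, with a bar at the list median and a dotted line at the median of all genes (0.0543). Points are spread vertically for visibility. Xdh at 1.36 is the point farthest to the right, and Ak4, which control replicate 2 sets apart, is the farthest to the left at -2.02.

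The genes whose pattern over the 6 libraries was most like that of Xdh were searched among the 7933 with a mean of at least 5 FPKM, by the root mean square distance of centred log2(FPKM + 1) values. They were Tst (0.141), Trib3 (0.159), Slc40a1 (0.164), Slc27a6 (0.185) and Neat1 (0.193). Tst, which encodes the mitochondrial sulfurtransferase rhodanese, had 152, 187 and 208 FPKM with GSK4112 and 74.5, 86.5 and 77.7 FPKM in controls. Trib3, a stress-induced pseudokinase gene, had 9.97, 7.82 and 10.3 FPKM with GSK4112 and 2.28, 3.38 and 2.52 FPKM in controls. Likeness was measured on the same libraries in which Xdh separated the groups, so genes that separate them too are near it by construction. Among the purine enzymes the nearest to Xdh was Aox1 at 0.625 and the farthest was Hprt at 0.887, over the same 6 libraries.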

How the data were processed

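RNA sequencing libraries of 3 GSK4112 and 3 control samples of cultured mouse granulosa cells were compared, with groups and replicate numbers from the sample titles. The deposited table gives FPKM values, computed by the authors, per the file headers, for 27151 Ensembl gene IDs. GRCm38 is the build per the submitters' processing notes. No source used here names the aligner, counter, annotation or strand setting, so reads of overlapping or near-identical genes cannot be told apart. Symbols, exons and coordinates came from GENCODE M21 (27098 IDs matched, 53 did not), and promoters from RefSeq on GRCm38.p6. Depth came from the steps between low FPKM values. At the library totals found, values below 500 fragments were whole to within 0.01 in 92.8 to 93.1% of cases.

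The test was limma (version 3.58.1, under R 4.3.3) with a variance trend and no block, 2-sided, on log2(FPKM + 1) of the 12181 genes whose mean FPKM reached 1, with Benjamini-Hochberg adjustment over them. The log scale understates changes of low genes. The procedure was tested on simulated data with independent noise of the same SD for every gene. That simulation held no deviation shared by same-numbered libraries, so it does not cover the spread seen here. Tables and figures used Python 3.11.15, numpy 2.4.6, pandas 2.3.3, scipy 1.17.1 and matplotlib 3.10.9.

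The members and lists were chosen with earlier results of these data known. Genes named were all members, from each list up to 3 called either way or else the 2 most abundant, the 5 genes most like Xdh, relatives and Nr1d1. A gene taken by this rule is not reported here. Genes called with the block, Mocos, marker genes and genes highest in control replicate 2 were added after their values were seen. Same-numbered libraries deviated together from their group means (correlations over genes of 0.665, 0.326 and 0.213, each over 0.1). The numbers were taken as pairs in the fits with the block, and the main fit did not use them. That pairing comes from the data, not from a label, and GSK4112 replicate 2 correlated better with control replicate 3 (0.530) and GSK4112 replicate 3 with control replicate 2 (0.357). The alternatives tried were other pseudocounts (0.1 or 0.5), other filters (none, or a mean of 5 or more), TPM, median-of-ratios and quantile scaling, limma without trend or with sample weights, the replicate block, and leaving out each library or both replicate 1 libraries. Limma-voom on recovered fragments and the block without replicate 1 were added after seeing the data.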

Additional observations from a re-analysis of the deposited data

How the results depend on the processing

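Over all genes, 126 calls became 26 with no filter, 830 (470 higher, 360 lower) with sample weights, 839 (374 higher, 465 lower) with the replicate block, 856 without both replicate 1 libraries and 1139 with both of these last changes. Leaving out 1 library gave 0 to 153 calls. There were 0 without GSK4112 replicate 2, GSK4112 replicate 3 or control replicate 3, with 1224, 1318 and 1843 genes at an unadjusted p under 0.05, and 8 without control replicate 2. The number of purine enzymes called was 0 to 1 on leaving out 1 library and 1 under all other alternatives, the block included. For the 63 other pathway genes, 0 calls became 4 with sample weights, 4 with the replicate block, 4 without both replicate 1 libraries, 7 with the block without these, and 0 to 1 on leaving out 1 library. Ampd3, Aox1, Ada, Adk and Gm49342, none of them called, changed sign under some alternatives, and the cause was not tested. On leaving out 1 library, the log2 change of Ampd3 ran from -0.25 (without GSK4112 replicate 1) to 0.42, being -0.0916 without control replicate 3, and that of Aox1 from -0.0469 (without control replicate 1) to 0.45. That of Ada ran from -0.0513 (without GSK4112 replicate 3) to 0.20, that of Gm49342 from -0.26 to 0.0591 (without control replicate 1), being 0.0185 without GSK4112 replicate 2, and that of Adk from -0.15 to 0.0822 (without GSK4112 replicate 1). Adk was also at 0.0058 with sample weights and 0.0307 without both replicate 1 libraries, with or without the block. Nt5e (-0.25 to -0.0165), Hprt (-0.51 to -0.22) and Aprt (-0.26 to -0.0709) kept their sign on leaving out 1 library. The 3 other scalings keep the order of genes within a library, so they cannot test the order of Xdh and Adk. Whether that order depends on the exon lengths used was not tested. Depth left Gda with too few fragments to compare.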
